A study of Mus musculus with 24 samples.

Results

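The DMXAA response of CRE-labelled bone marrow-derived macrophages (BMDMs) was measured in 4 of the 24 polyA RNA libraries of the series, namely CRE control 1 and 2 and CRE DMXAA 1 and 2. They were chosen by their labels (BMDM, CRE, numbers 1 and 2). The CRE and WT libraries numbered 3 were set aside because they lack macrophage transcripts. The series compared BMDMs and bone marrow-derived dendritic cells of both genotype labels, with and without DMXAA, in 8 groups of 3 libraries. Per the series text, all mice carried floxed Tmem173 alleles (Tmem173fl/fl) and had received tamoxifen, so controls share both. The CRE label stands for mice that also carried an inducible Cre (written Lzym-Creert2 there), and the WT label for mice without it. Cre expression follows the myeloid gene Lyz2, and the share of cells in which it had acted was not given. Control libraries (CT) received no agonist and DMXAA libraries received 40 µM per the series text, whereas the study's methods state doses in µg/mL. The dose is therefore uncertain, and the sources used here do not give the time of treatment of these libraries, the age of the mice that gave their marrow, or any pooling of animals. The question was which programs still responded to DMXAA under the CRE label.

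Tmem173 encodes STING, a membrane adaptor that cytosolic cyclic dinucleotides activate and that DMXAA binds in its mouse form. Active STING recruits the kinase TBK1, which phosphorylates IRF3 and leads to transcription of type I interferon, and it also reaches NF-kB. Secreted interferon then acts through IFNAR, JAK1 and TYK2 on a complex that holds STAT2 and IRF9 and binds the interferon-stimulated response element (ISRE) in the promoters of interferon-stimulated genes. Macrophages are known for strong responses of both kinds, so genes of the direct, the NF-kB and the secondary interferon branch can be read in the same culture.

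The response was large in the interferon branch. Of 11569 genes tested, 1157 (10%) were called, of which 842 (7.28%) were higher and 315 (2.72%) lower under DMXAA. Interferon-induced antiviral effectors and GTPases, antigen presentation by MHC class I and nucleic acid sensors were called higher in most of their members. Cx3cr1, Lyz2 and several genes of DNA replication and sterol synthesis fell. Most NF-kB target genes moved by less than the test could call, and Ifnb1 and Il6 stayed at 0 to 4 counts.

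Promoters of the genes at the ends of the response are shown first, since ISRE matches were more frequent among genes called higher than among other genes. Each sequence runs 5′ to 3′ on the gene's strand from 250 bases before to 50 bases after the annotated start, as RefSeq gives it for GRCm38.p6. Capitals mark matches to the ISRE core GAAANNGAAA on either strand, and overlapping matches run together. Ifit1bl1, Slfn1 and Ifi206 had the largest fitted rises, and Pald1 the largest fall, among called genes that had an entry, whose groups did not overlap and whose higher group averaged 5 FPKM or more. Isg15 and Cxcl10 are described at length below.
Ifit1bl1, chr19:34601919-34602218, minus strand: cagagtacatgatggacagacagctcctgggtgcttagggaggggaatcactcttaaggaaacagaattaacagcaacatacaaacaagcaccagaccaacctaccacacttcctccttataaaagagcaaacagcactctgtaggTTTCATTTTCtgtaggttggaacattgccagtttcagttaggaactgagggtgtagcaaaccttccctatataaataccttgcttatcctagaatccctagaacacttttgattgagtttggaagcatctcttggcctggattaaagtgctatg
Slfn1, chr11:83116570-83116869, plus strand: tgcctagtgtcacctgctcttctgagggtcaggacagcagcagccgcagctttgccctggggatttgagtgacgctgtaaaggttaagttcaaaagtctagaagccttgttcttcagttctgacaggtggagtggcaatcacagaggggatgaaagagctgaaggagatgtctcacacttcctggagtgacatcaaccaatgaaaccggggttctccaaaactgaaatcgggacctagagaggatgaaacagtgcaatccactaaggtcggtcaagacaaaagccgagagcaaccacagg
Ifi206, chr1:173491269-173491568, minus strand: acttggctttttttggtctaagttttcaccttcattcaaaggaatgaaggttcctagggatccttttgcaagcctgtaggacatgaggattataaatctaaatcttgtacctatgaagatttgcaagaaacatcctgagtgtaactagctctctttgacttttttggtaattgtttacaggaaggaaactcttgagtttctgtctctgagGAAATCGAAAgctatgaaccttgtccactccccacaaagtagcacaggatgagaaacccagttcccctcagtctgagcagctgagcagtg
Pald1, chr10:61383290-61383589, minus strand: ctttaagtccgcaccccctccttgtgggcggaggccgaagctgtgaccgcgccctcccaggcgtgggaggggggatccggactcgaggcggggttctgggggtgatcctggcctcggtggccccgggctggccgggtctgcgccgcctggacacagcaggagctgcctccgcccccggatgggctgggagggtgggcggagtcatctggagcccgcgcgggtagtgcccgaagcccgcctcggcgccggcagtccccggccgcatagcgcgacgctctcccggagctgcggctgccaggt
Isg15, chr4:156200769-156201068, minus strand: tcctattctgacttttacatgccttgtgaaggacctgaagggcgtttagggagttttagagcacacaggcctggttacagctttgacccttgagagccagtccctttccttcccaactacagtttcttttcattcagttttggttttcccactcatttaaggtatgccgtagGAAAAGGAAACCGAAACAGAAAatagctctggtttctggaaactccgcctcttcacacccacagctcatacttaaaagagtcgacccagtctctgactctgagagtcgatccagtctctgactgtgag
Cxcl10, chr5:92348840-92349139, minus strand: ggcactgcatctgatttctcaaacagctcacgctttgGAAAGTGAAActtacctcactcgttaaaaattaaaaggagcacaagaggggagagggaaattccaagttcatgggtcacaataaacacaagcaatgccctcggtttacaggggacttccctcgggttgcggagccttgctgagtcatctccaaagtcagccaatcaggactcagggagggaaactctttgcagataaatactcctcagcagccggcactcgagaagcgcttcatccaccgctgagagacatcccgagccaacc

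The Isg15 window held 3 overlapping ISRE matches, 66 to 78 bases before the start. Ifit1bl1 (2 windows listed, the first shown), Ifi206 and Cxcl10 held 1 match each, 104, 40 and 213 bases before the start. The Slfn1 and Pald1 windows held 0. Cxcl10 also held 4 matches to the NF-kB (kB) motif, none of them overlapping the ISRE match, and Slfn1 held 1. Of the tested genes, 8321 had a promoter entry, and 347 of these (4.17%) held an ISRE match, beside 1079 of 27025 (3.99%) over all gene symbols with an entry. The share was 107 of 648 (16.5%) among genes called higher, 8 of 233 (3.43%) among genes called lower and 232 of 7440 (3.12%) among genes not called. It was 44 of 110 (40%) for rises of at least 10-fold, 31 of 120 (25.8%) for 4- to 10-fold and 32 of 418 (7.66%) for smaller ones. The kB motif was spread more evenly, at 91 of 648 (14%) among genes called higher and 898 of 7440 (12.1%) among genes not called. By program, 9 of 10 GTPases and 17 of 27 antiviral effectors with an entry held an ISRE match. NF-kB target genes held a kB match in 13 of 24 and an ISRE match in 1 of 24. A match describes letters in a window and does not show that a factor binds there.

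The 4 CRE-labelled libraries held 16941475 to 18828146 counts and 10398 to 10517 genes with an FPKM (fragments per kilobase of gene, scaled to each library's total) of at least 1. Macrophage markers were present in all 4, with 0 of 10 at 0. Fibroblast markers summed to 28.8 to 53.9 CPM (counts scaled to a common library total), beside 422 to 458 in both WT libraries numbered 2 and 12657 to 19149 in the libraries numbered 3. Neutrophil markers summed to 16.8 to 32.3 CPM, and 4 to 5 of 6 lymphoid and 3 to 4 of 4 mast cell and basophil markers were at 0. Replicates lay close together, with a coefficient of biological variation of 5.19% in the 4 CRE-labelled libraries against 35.1% in the 4 WT-labelled ones. Genes were tested in 1 edgeR quasi-likelihood fit of all 8 BMDM libraries numbered 1 and 2, whose shared coefficient was 24.5%, and were called at a Benjamini-Hochberg adjusted p below 0.05. The spread used for CRE-labelled cells is thus set largely by WT-labelled libraries. With the 4 CRE-labelled libraries alone, 6389 genes (55.2%) were called, 3315 higher (28.7%) and 3074 lower (26.6%), and these included all 1157 genes called above, each with the same sign. The labels do not say that replicates are separate cultures, so p-values measure only the spread between these libraries, which may be technical.

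Leaving out a CRE-labelled library gave 250 called genes without control 1, 248 without control 2, 288 without DMXAA 1 and 321 without DMXAA 2, 239 to 312 of them higher and 6 to 11 lower. The lone library left in a group was then assumed to vary like the others. Of 106 genes named here that were called, 46 were called in all 4 of these fits, 10 in some and 50 in none of them. Leaving out a WT-labelled library gave 1914 and 1958 calls without WT control 1 and 2, and 1931 and 1940 without WT DMXAA 1 and 2. With all 12 BMDM libraries in edgeR, those without macrophage transcripts included, 0 genes were called in the CRE response and 0 in the difference between labels, and 293 and 70 had an unadjusted p below 0.05. Among the 842 genes called higher, the median log2 fold change was 1.42, 582 rose at least 2-fold, 318 at least 4-fold and 170 at least 10-fold. Falls were smaller, with a median of -0.93 among the 315 genes, of which 136 fell at least 2-fold, 9 at least 4-fold and 0 at least 10-fold. The groups of 2 did not overlap in 76.7% of all genes tested, so a lack of overlap alone says little. Over all genes the median log2 fold change was -0.01 in CRE-labelled and -0.08 in WT-labelled cells.

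**Figure D1:**
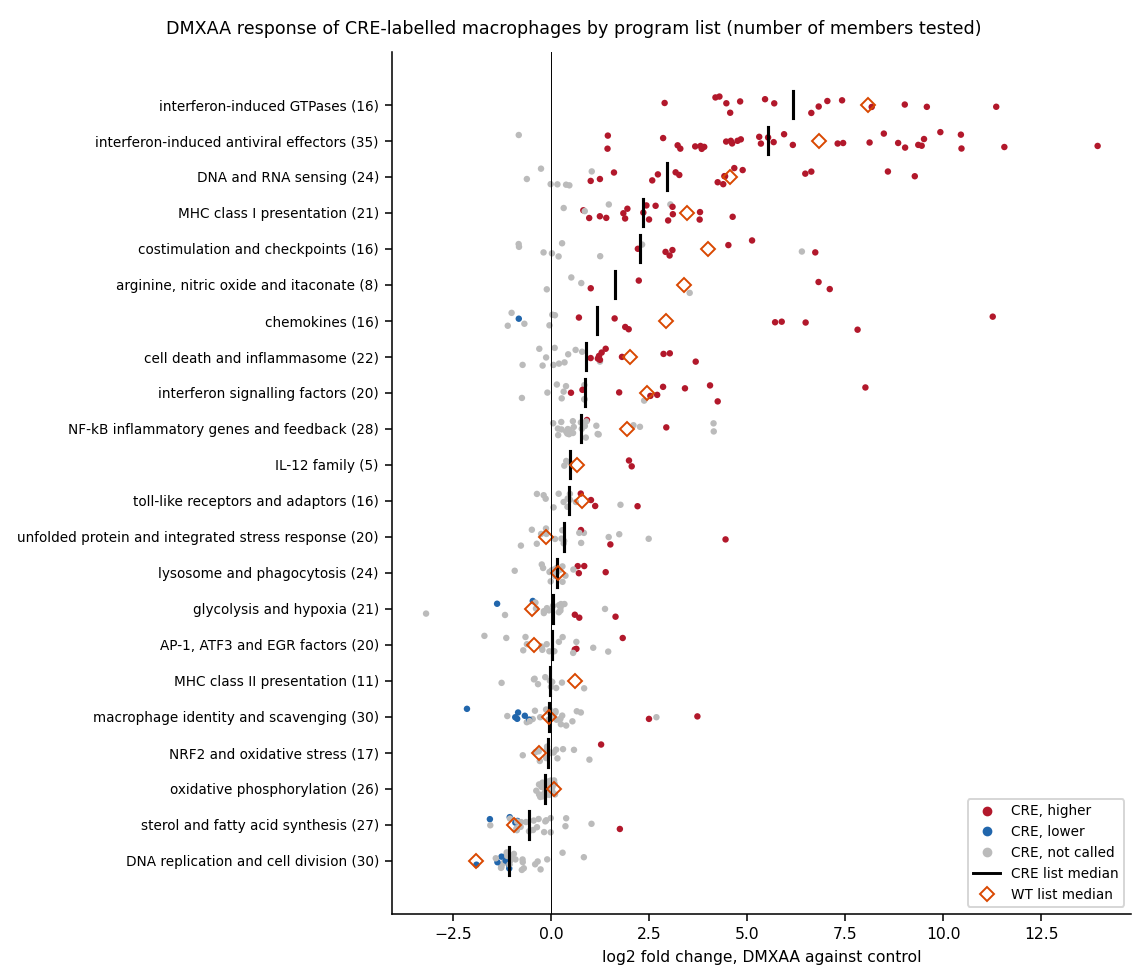
log2 fold change (DMXAA against control, x axis) of every tested member of 22 program lists in CRE-labelled BMDMs, with the list median as a black bar and the WT-labelled median as an open diamond. The lists of GTPases and antiviral effectors lie farthest to the right, with CRE medians of 6.16 and 5.53, and the list of cell division genes farthest to the left, at -1.07.

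Tmem173, the floxed gene (ENSMUSG00000024349, chromosome 18, 35733678 to 35740554, GRCm38), was examined first. Its FPKM was 10.4 and 8.76 in CRE control 1 and 2, and 9.12 and 10.1 in CRE DMXAA 1 and 2. The groups overlapped, and the log2 fold change was -0.02 ± 0.24 (SE, n = 2 against 2; adjusted p 0.973 in edgeR). In WT-labelled libraries the values were 14.7 and 9.91 in control, and 31.8 and 22.8 under DMXAA. The table counts reads over the whole gene, so the floxed part was not seen apart from the rest and the transcript does not check the CRE label. Of its partners, Tbk1, the kinase downstream of STING, had log2 0.46 (adjusted p 0.0501), Irf3 -0.26, Mavs, the adaptor of the RNA sensors, 0.16, and Mb21d1, which encodes the DNA sensor cGAS, 1.03 (adjusted p 0.106), and 0 of these 4 passed the test. In the fit of the 4 CRE-labelled libraries alone, which called 55.2% of all genes, Tbk1 and Mb21d1 were called higher and Irf3 lower.

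Antiviral effectors were called higher in 34 of 35 members tested and lower in 0. Their median log2 fold change was 5.53, and stayed at 5.53 with the 3 genes near 0 in control set to their bound. Isg15, a ubiquitin-like modifier (ENSMUSG00000035692, chromosome 4, 156199424 to 156200818, GRCm38), had 3.55 and 4.87 FPKM in control, and 1135 and 1263 under DMXAA. Every DMXAA library lay far above both controls, and the log2 fold change was 8.12 ± 0.59 (SE, n = 2 against 2; adjusted p 0.000333 in edgeR), a 279-fold rise. Ifit1, which binds viral RNA without a host cap, rose from 0.632 and 0.93 to 371 and 368 FPKM (log2 8.85 ± 0.52, adjusted p 0.000147). Mx1, a dynamin-like GTPase that blocks influenza virus, rose from 0.133 and 0.253 to 196 and 194 FPKM (log2 9.93 ± 0.33, adjusted p 2.6e-05). Ifit3, a partner of Ifit1, went from 0.961 and 1.01 to 1381 and 1444 FPKM, with log2 10.45. All 4 of these genes thus went from under 5 FPKM to at least 194. Ifi44, an interferon-induced cytosolic protein, rose by 10.47 on the log2 scale, from 0.0182 and 0.0493 to 51.1 and 51.7 FPKM.

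Ifit1bl1 and Ifit3b, near-identical relatives of the Ifit genes, had 0 to 3 counts in both controls and 7027 to 9025 under DMXAA. Their rises were at least 11.63 and 11.30 on the log2 scale, computed against a floor of 3 counts per library. Ifi206 and Ifi208 of the interferon-inducible PYHIN cluster had 1 to 2 counts in control and rose by at least 10.65 and 9.85. Slfn1, a Schlafen family gene, rose from 0 counts to 1435 and 1312, by at least 8.94, and Apol9b from 0 to 314 and 379, by at least 6.96. The order among these genes is not settled, and reads shared with near-identical copies could have been split between them. With a CRE-labelled library left out, 29 to 33 effectors were called. Apol9b was called in none of those fits.

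All 16 interferon-induced GTPases tested were called higher, with a median log2 fold change of 6.16, or 5.69 with 2 genes at their bound. Gbp2, a guanylate-binding protein that coats pathogen vacuoles, had 3.27 and 3.4 FPKM in control, and 573 and 591 under DMXAA (log2 7.42 ± 0.41, adjusted p 0.000114 in edgeR). Gbp5, which promotes inflammasome assembly, rose from 0.11 and 0.0304 to 37.8 and 35.6 FPKM, by 9.02 on the log2 scale. Gbp4 rose from 0 counts in both controls to 345 and 286, by at least 6.82. Iigp1, an immunity-related GTPase, rose from 0.0717 and 0.0484 to 48.2 and 48.3 FPKM, with log2 9.59. DMXAA libraries lay above control libraries for all 16, beside 76.7% of all genes tested without overlap in either direction. In each of the 4 fits without a CRE-labelled library 15 members were called. Gbp and Tgtp genes have close copies, so single members are uncertain where reads could be split.

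Nucleic acid sensing was the next list, with 17 of 24 members called higher and 0 lower, and a median log2 fold change of 2.95. Among them, Ifi213 and Ifi205 of the PYHIN cluster rose from 0.0736 and 0.0221 to 30.4 and 29.9 FPKM and from 0.107 and 0.109 to 42.7 and 43.3 FPKM, by 9.28 and 8.59 on the log2 scale. Zbp1, a sensor of Z-form nucleic acids, rose from 1.14 and 0.985 to 105 and 110 FPKM, by 6.64 ± 0.31 (SE; adjusted p 6.44e-05 in edgeR). Ddx58 and Ifih1, which encode the RNA helicases RIG-I and MDA5, rose by 4.67 and 4.44. Tmem173, Mb21d1, Tbk1 and Mavs were among the 7 members not called. In the fit of the 4 CRE-labelled libraries 20 of 24 were called higher and 2 lower, beside 28.7% and 26.6% of all genes. Between 12 and 14 members were called without 1 CRE-labelled library.

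Interferon signalling factors followed, with 10 of 20 tested members called higher and 0 lower, beside 7.28% and 2.72% of all genes. The list median log2 fold change was 0.85. Irf7, a transcription factor that amplifies interferon-alpha genes, had 1.41 and 1.61 FPKM in control, and 389 and 408 under DMXAA (log2 8.02 ± 0.31, adjusted p 3.33e-05 in edgeR). Stat2 went from 6.1 and 6.28 to 125 and 114 FPKM (log2 4.25 ± 0.37). Irf9, its partner, rose by 1.73 and Irf1 by 2.53. The groups did not overlap for any of the 4 genes, nor for 76.7% of all genes tested. Socs1, a feedback inhibitor of JAK kinases, rose from 0.596 and 0.572 to 3.85 and 3.9 FPKM, by 2.70. Irf5 (log2 0.85) and Ifngr1, a chain of the interferon-gamma receptor (-0.75), were not called.

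Ifnb1 itself, the first interferon gene induced by STING, had 0 and 0 counts in CRE control, and 0 and 1 under DMXAA. It was not detectable at this depth in 3 of the 4 libraries, and the WT-labelled DMXAA libraries held 21 and 208 counts. Without 1 CRE-labelled library, 7 signalling factors were called in each of the 4 fits, and Socs1 in none. Among the 662 transcription factors tested, 37 were called higher and 3 lower (6.04%), a share below the 10% of all genes. Pou3f1, a POU factor best known from neural cells, was 1 of the 37, and rose from 0.232 and 0.288 to 11.8 and 10 FPKM (log2 5.35), but was called in 2 of 4 fits with a CRE-labelled library left out. Batf2, a partner of Irf1, rose from 1.02 and 0.879 to 10.2 and 10.4 FPKM (log2 3.41).

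**Figure D2:**
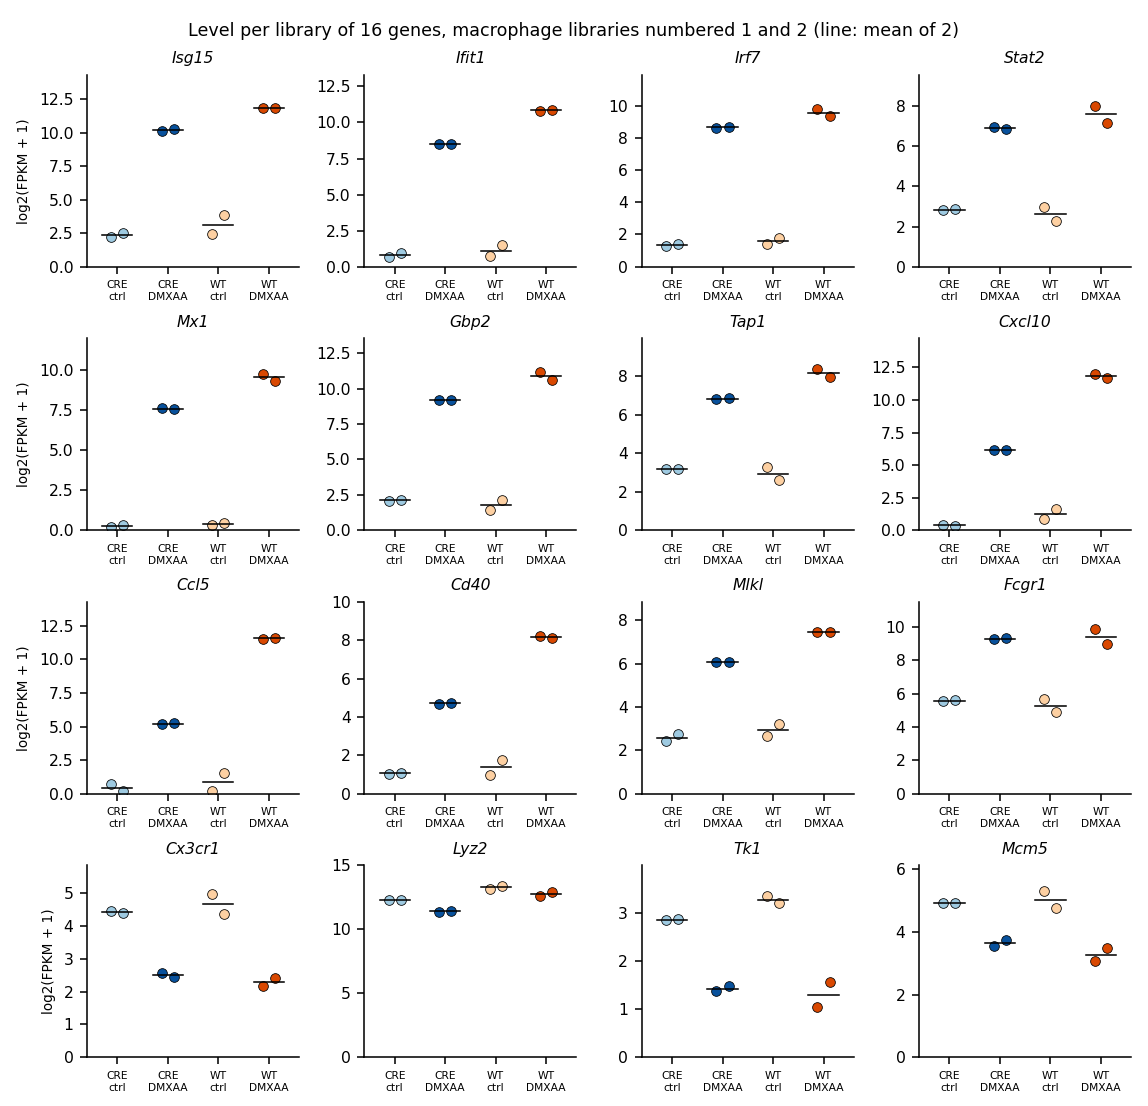
log2(FPKM + 1) in each library (points; line, mean of 2) of 16 genes in CRE-labelled (blue) and WT-labelled (orange) control and DMXAA BMDMs numbered 1 and 2. Points of the CRE replicates nearly coincide, the first 12 genes are higher and the last 4 lower under DMXAA in both labels, and Cxcl10, Ccl5 and Cd40 stay well below the WT DMXAA libraries.

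MHC class I presentation was called higher in 17 of 21 members and lower in 0, with a median log2 fold change of 2.35. Tap1, which carries peptides into the endoplasmic reticulum, had 8.22 and 8.02 FPKM in control, and 113 and 116 under DMXAA (log2 3.80 ± 0.27, adjusted p 0.000309 in edgeR). Nlrc5, the transactivator of class I genes, rose from 1.47 and 1.46 to 21.9 and 19.2 FPKM (log2 3.79), and the non-classical gene H2-T24 from 3.31 and 3 to 80.6 and 78 FPKM (log2 4.63). The classical gene H2-K1 rose less, from 305 and 320 to 540 and 578 FPKM (log2 0.82), and B2m, the light chain, by 0.97. H2-D1 and H2-M3 had log2 0.32 and 0.85 and were not called. H2-T24 and other class I genes have close copies between which reads could be split. Leaving out a library gave 12 to 14 called members, H2-T24 in 2 of 4 fits, and H2-K1 and B2m in none.

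MHC class II presentation had 0 of 11 tested members called in either direction in edgeR, with a median log2 fold change of -0.04. With the 4 CRE-labelled libraries alone, 1 was called higher and 5 lower, beside 28.7% and 26.6% of all genes. DESeq2 called 0, and 1 had an unadjusted p below 0.05 in edgeR. The 5 called lower were H2-Aa, H2-Ab1, H2-Eb1, Cd74 and H2-DMb2, with log2 -0.34, -0.43, -0.44, -0.16 and -1.27 in the fit of 8 libraries. Their WT values were 0.77, 1.16, 0.53, 0.73 and -0.62. Of the 11 members, 7 had a value below 0 and 4 above. Ctss and Ctsl, cathepsins that process the invariant chain, had log2 -0.01 and -0.04. Ciita, the transactivator of class II genes, stayed at 10 and 14 counts in control, and 24 and 14 under DMXAA. It was called in the difference between labels (log2 term -4.56 ± 0.64, adjusted p 0.0218).

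Costimulatory and checkpoint genes were called higher in 7 of 16 members and lower in 0, beside 7.28% and 2.72% of all genes. Their median was 2.26, or 1.59 with bounds. Cd40, the receptor for T cell help, had 1.05 and 1.12 FPKM in control, and 24.9 and 25.9 under DMXAA (log2 4.52 ± 0.41, adjusted p 0.000948 in edgeR). Tnfsf10, the death ligand TRAIL, rose from 0.0743 and 0.0766 to 8.19 and 8.47 FPKM (log2 6.74), and Cd69, an activation marker, from 0.12 and 0.163 to 5.06 and 5.09 FPKM (log2 5.12). Cd274, which encodes PD-L1, rose from 23.6 in both controls to 204 and 185 FPKM (log2 3.02). Cd86, a ligand of CD28, rose from 1.85 and 1.61 to 13.6 and 12.9 FPKM (log2 2.92). DMXAA libraries lay above both controls for all 5, beside 76.7% of all genes tested without overlap in either direction. Vsir and Havcr2, inhibitory checkpoint genes, had log2 -0.83 and 0.19 and were not called. Without a library, 3 to 5 members were called, Cd274 in 2 of 4 fits and Cd86 in none.

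Chemokines were split, with 9 of 16 members called higher and 1 lower, beside 7.28% and 2.72% of all genes. Their median log2 fold change was 1.16. Cxcl10 (ENSMUSG00000034855, chromosome 5, 92346638 to 92348889, GRCm38), which attracts activated T cells and whose window held 1 ISRE and 4 kB matches, had 0.348 and 0.269 FPKM in control, and 71.9 and 70.1 under DMXAA (log2 7.82 ± 0.50, adjusted p 0.000193 in edgeR). Cxcl9, of the same receptor, rose from 0 counts to 285 and 307, by at least 6.73. Cxcl11, the other ligand of that receptor, had 1 and 0 counts in control, and 34 and 32 under DMXAA, a rise of at least 3.56. Ccl5, which attracts T cells and monocytes, rose from 0.641 and 0.157 to 35.5 and 36.9 FPKM (log2 6.49 ± 0.82, adjusted p 0.00493). Ccl12, a monocyte attractant, rose from 0.416 and 0.938 to 37.3 and 37.4 FPKM (log2 5.71). Ccl2, Ccl3 and Ccl4, other inflammatory CC chemokines, had higher control levels. Ccl4 went from 14.9 and 14.8 to 53.6 and 58.1 FPKM (log2 1.89), and Ccl2 from 23.6 and 25.4 to 75.3 and 77.5 FPKM (log2 1.62). Ccl3 had 44.5 and 47.2 FPKM, and 50.8 and 48.6 under DMXAA, and was not called (log2 0.09, adjusted p 0.87). Ccl6, a constitutive macrophage chemokine, fell from 176 and 178 to 99.8 and 102 FPKM (log2 -0.83), while Ccl9 (log2 0.02) and Pf4 (-1.11) were not called. Leaving out a library gave 5 to 6 members called higher and 0 lower, and Ccl5 was called in 2 of 4 fits and Cxcl11 in none, nor was Cxcl11 called with limma on log2(FPKM + 1).

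NF-kB inflammatory genes and feedback regulators were called in few members. Of 28 members tested, 2 (7.14%) were called higher and 0 lower, a share close to the 7.28% of all genes. The median log2 fold change was 0.77, and all 28 values were above 0 and below the WT value of the same gene. Il18, an inflammasome-processed cytokine, rose from 3.31 and 3.47 to 24.3 and 28.4 FPKM (log2 2.93 ± 0.35, adjusted p 0.00381 in edgeR). Nfkbiz, an inducible nuclear regulator of NF-kB, rose from 1.38 and 1.7 to 3.09 and 2.79 FPKM (log2 0.91 ± 0.22, adjusted p 0.0494 in edgeR). Tnf had 16.1 and 14.9 FPKM in control, and 35 and 34.9 under DMXAA (log2 1.15 ± 0.30, adjusted p 0.059). Nfkbia, whose product IkB-alpha is the feedback inhibitor, had 35.5 and 33.6, and 40.2 and 39.1 (log2 0.17). Tnf was thus 2.22-fold higher without passing the test, and Nfkbia 1.13-fold. Larger uncalled values were log2 2.26 for Ccrl2, a chemerin receptor (5.36 and 4.91 FPKM to 25.2 and 24.9), 2.10 for Il1rn, the IL-1 receptor antagonist (13.6 and 12.9 to 55.7 and 59.5), and 1.21 for the NF-kB subunit gene Relb. Icam1, an adhesion molecule, had log2 0.80, Nfkbie 0.75 and Tnfaip2 0.55. Il6 had 0 and 0 counts in control, and 0 and 4 under DMXAA, and Il1b 1 to 4 counts in all 4 libraries, so neither was detectable as a change at this depth.

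The NF-kB list depended strongly on the choice of spread. With the 4 CRE-labelled libraries alone, 22 of 28 members were called higher and 0 lower, beside 28.7% of all genes higher in that fit, and Tnf, Nfkbia, Nfkbie, Icam1, Tnfaip2, Ccrl2, Il1rn and Relb were among them. DESeq2 on the 8 libraries called 6 higher, beside 1235 of all 11569 genes. Leaving out a CRE-labelled library left 0 to 1 called, and Nfkbiz in none of those fits nor with limma on log2(FPKM + 1). Most of the list thus passed the adjusted test with the spread between CRE-labelled replicates and not with the spread pooled over both labels. With the pooled spread, 15 of 28 had an unadjusted p below 0.05 in edgeR, beside 3096 of all 11569 genes.

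**Figure D3:**
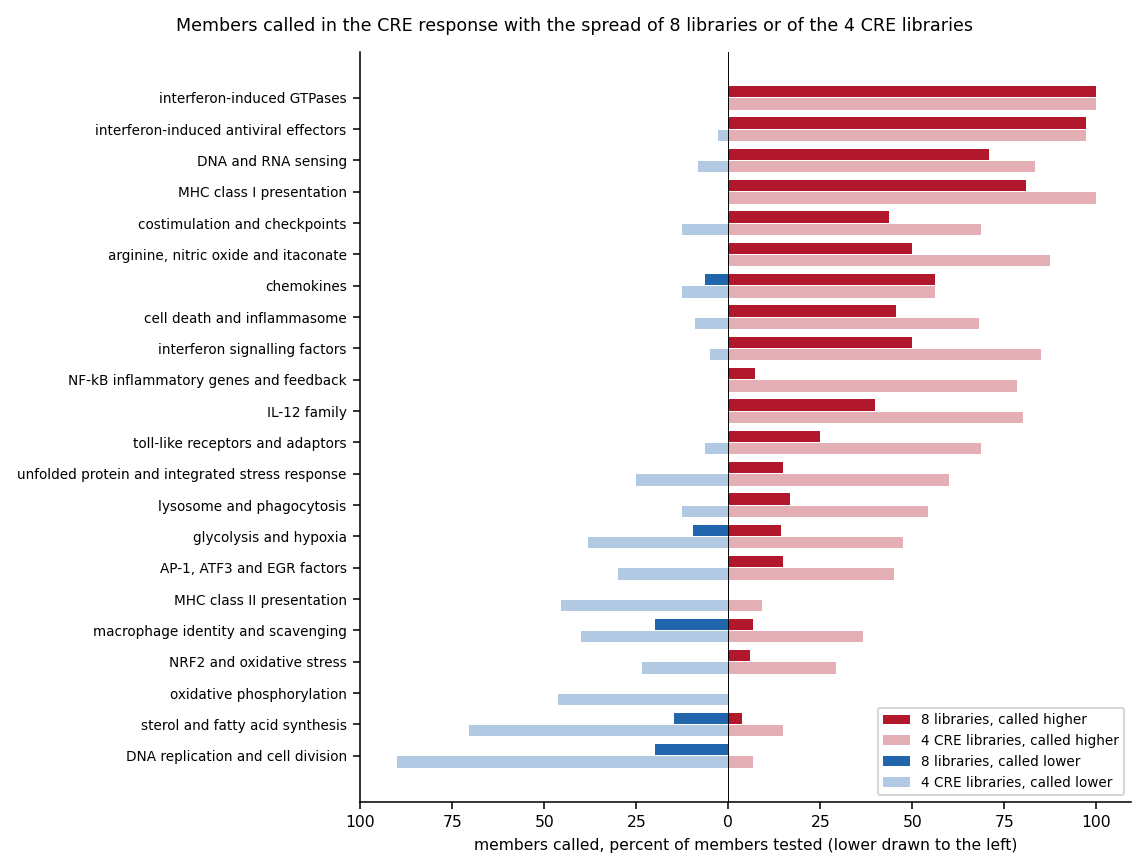
Share of tested members called higher (right) and lower (left) in the CRE response for each program list, with the spread of all 8 libraries (dark) or of the 4 CRE-labelled libraries alone (pale). Antiviral effectors (34 of 35) and GTPases (16 of 16) are called higher alike in both fits, whereas interferon signalling factors go from 10 to 17 of 20, NF-kB genes go from 2 to 22 of 28 called higher and cell division genes from 6 to 27 of 30 called lower. Over all genes, the share called higher goes from 7.28% to 28.7% and the share called lower from 2.72% to 26.6%.

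The IL-12 family had 2 of 5 tested members called higher and 0 lower, beside 7.28% and 2.72% of all genes. Its median log2 fold change was 0.47. Il27, the p28 subunit of IL-27, had 1.1 and 0.79 FPKM in control, and 4.18 and 3.76 under DMXAA (log2 2.05 ± 0.28, adjusted p 0.00624 in edgeR). The receptor subunit Il12rb1 rose from 0.0681 and 0.196 to 0.586 and 0.498 FPKM (log2 1.98, adjusted p 0.048). Both groups were low, at 5 to 40 counts for Il12rb1. Ebi3, the other subunit of IL-27, and Il6st, which encodes gp130, had log2 0.38 and 0.47 and were not called. Il12a had 0 counts in all 4 CRE-labelled libraries, Il23a 0, and Il12b 0 to 2, so these 3 were below the filter on low values. Il27 was called in 1 of 4 fits with a library left out, and Il12rb1 in none. With limma on log2(FPKM + 1), Il12rb1 had an adjusted p of 0.154.

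Cell death and inflammasome genes were called higher in 10 of 22 members and lower in 0, beside 7.28% and 2.72% of all genes. Their median log2 fold change was 0.90. Mlkl, the executor of necroptosis, had 4.35 and 5.84 FPKM in control, and 67 and 66.4 under DMXAA (log2 3.69 ± 0.26, adjusted p 0.000308 in edgeR). Daxx, a death-domain adaptor and histone chaperone, rose from 12.9 and 11.7 to 100 and 103 FPKM (log2 3.02), and Casp4, the caspase that detects intracellular lipopolysaccharide, from 2.65 and 2.74 to 19.6 and 20.4 FPKM (log2 2.86). The groups did not overlap for any of the 3 genes, nor for 76.7% of all genes tested. Bax and Bcl2a1b of the BCL2 family had log2 -0.13 and -0.73 and were not called. With a library left out, 2 to 7 members were called, without control 1 or control 2 only 2, and Casp4 in none of the fits.

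Genes of arginine, nitric oxide and itaconate metabolism were called higher in 4 of 8 members and lower in 0, with a median of 1.62. Over all genes these shares were 7.28% and 2.72%. Acod1, which makes itaconate, had 0.767 and 0.461 FPKM in control, and 85.4 and 86.3 under DMXAA (log2 7.11 ± 1.59, adjusted p 0.0386 in edgeR). Gch1, which makes the cofactor of nitric oxide synthase, rose from 4.58 and 5.31 to 23.3 and 24 FPKM (log2 2.23). Nos2, the inducible synthase itself, went from 0 counts in both controls to 18 and 9, a rise of at least 2.27 on the log2 scale, beside 84.4 and 67.6 FPKM in WT-labelled DMXAA libraries against 0.245 and 0.126 here. Ass1, which recycles arginine, and Odc1, of polyamine synthesis, had log2 3.53 (adjusted p 0.0593) and 0.51 and were not called. With a library left out, 1 to 2 members were called, Acod1 in none and Nos2 in 1 of 4 fits. Nos2 was not called with limma on log2(FPKM + 1), with an adjusted p of 0.341.

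Macrophage identity genes had 2 of 30 members called higher and 6 lower, beside 7.28% and 2.72% of all genes. The share called higher was thus near that of all genes. The median log2 fold change was -0.06. Of the defining markers, Csf1r, the receptor for CSF1, had 385 and 386 FPKM in control, and 414 and 400 under DMXAA. Adgre1, which encodes F4/80, had 289 and 291, and 284 and 278. Neither was called (log2 0.06 and -0.07). Lyz2, which encodes lysozyme and whose locus directs Cre expression, fell from 5101 and 5158 to 2667 and 2837 FPKM (log2 -0.92 ± 0.17, adjusted p 0.0197 in edgeR). Cx3cr1, the fractalkine receptor, fell from 21.1 and 19.9 to 4.96 and 4.39 FPKM (log2 -2.15 ± 0.23, adjusted p 0.00208). Mrc1, the mannose receptor, fell by 0.87 on the log2 scale. Both Fc gamma receptors called went the other way. Fcgr1, the high-affinity receptor, rose from 45.9 and 47.2 to 618 and 636 FPKM (log2 3.73 ± 0.37), and Fcgr4 from 19.2 and 22 to 117 and 119 FPKM (log2 2.49).

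The summed macrophage markers were 13256 to 13371 CPM in control and 9891 to 10048 under DMXAA, with 1 of 10 called higher (Fcgr1) and 3 lower (Lyz2, Mrc1 and C1qa). The median over the same 10 markers was 325 to 331 CPM in control and 587 to 596 under DMXAA, opposite to the sum. In bulk RNA, fewer cells of a type and less RNA per cell cannot be told apart. Lgals3 and Cd68, abundant macrophage genes, had log2 0.28 and 0.23 and were not called. Dendritic cell markers summed to 0.372 to 0.708 CPM in control and 5.52 to 5.81 under DMXAA. This came mainly from Xcr1, a chemokine receptor of cross-presenting dendritic cells, with 1 and 6 counts in control, and 95 and 91 under DMXAA (log2 4.87 ± 1.17, adjusted p 0.0478 in edgeR). It was the 1 dendritic marker of 6 that passed the filter on low values. Its part in other results was not tested. None of 6 fibroblast markers tested was called (Col1a1 had log2 -0.82 and Col1a2 -0.44), nor any of 3 neutrophil markers (S100a8 -0.71, S100a9 -0.67), and 0 of these 9 had an unadjusted p below 0.05 in edgeR. The fit of the 4 CRE-labelled libraries called 2 of each list lower, beside 26.6% of all genes. Fibroblast marker sums were 47.8 and 53.9 CPM in control, and 28.8 and 32.4 under DMXAA, and neutrophil sums 30.6 and 32.3, and 18.7 and 16.8. With a library left out, Cx3cr1, Fcgr1 and Fcgr4 were called in all 4 fits, and Lyz2, Mrc1, C1qa and Xcr1 in none. With limma on log2(FPKM + 1), C1qa and Xcr1 were not called.

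Toll-like receptors and adaptors had 4 of 16 members called higher and 0 lower, beside 7.28% and 2.72% of all genes. Their median was 0.45. Cd180, an LPS receptor homolog, rose from 68.6 and 68.3 to 326 and 313 FPKM (log2 2.20). The adaptors Myd88 and Ticam1 rose by 1.12 and 1.01. Tlr2 had 17.3 and 17.2 FPKM, and 21.2 and 22.4 under DMXAA, and was not called (log2 0.31, adjusted p 0.525 in edgeR), nor were Tlr13 (log2 0.47) and Tlr8 (log2 1.76). Immediate-early factors of the AP-1, ATF3 and EGR list had 3 of 20 called higher and 0 lower, with a median of 0.01. Over all genes these shares were 7.28% and 2.72%. Dusp1, a MAP kinase phosphatase, rose by 1.82, Atf3 by 0.64 and Junb by 0.60, whereas Atf4 had log2 1.07 and was not called. With a library left out, 0 members of either list were called in any of the 4 fits.

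The genes that fell formed fewer and weaker groups. DNA replication and cell division genes were called lower in 6 of 30 members and higher in 0, beside 2.72% and 7.28% of all genes. Their median log2 fold change was -1.07. Tk1, thymidine kinase, fell from 6.24 and 6.3 to 1.6 and 1.79 FPKM (log2 -1.91 ± 0.27, adjusted p 0.00762 in edgeR). Mcm5 and Mcm7, of the replicative helicase, fell from 29.1 and 29.6 to 10.7 and 12.3 FPKM (log2 -1.38) and from 19.3 and 19.1 to 8.03 and 8.13 FPKM (log2 -1.27). Mki67, a proliferation marker, fell from 6.25 and 6.15 to 2.85 and 3.13 FPKM (log2 -1.07). The direction was shared by most of the list, with 28 of 30 values below 0, but Pcna, the replication clamp, and Ccnd1, a G1 cyclin, lay above 0 (log2 0.29 and 0.83, not called). The 4 CRE-labelled libraries alone gave 27 of 30 lower and 2 higher, beside 26.6% of all genes lower. DESeq2 on 8 libraries gave 18 lower, beside 673 of all 11569 genes. With a library left out, 0 were called.

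Sterol and fatty acid synthesis was called lower in 4 of 27 members and higher in 1, beside 2.72% and 7.28% of all genes. The list median was -0.57. Mvd, an enzyme of the mevalonate route, fell from 23.3 and 26.6 to 11.6 and 12.7 FPKM (log2 -1.06 ± 0.22, adjusted p 0.0307 in edgeR), and Fdft1, the squalene synthase, fell by 0.92 on the log2 scale. Abcg1, a cholesterol exporter rather than a synthetic enzyme, rose from 22.3 and 21.4 to 75.9 and 73.5 FPKM (log2 1.75). Insig1 and Hmgcs1 had log2 -0.13 and -0.37 and were not called. In the fit of the 4 CRE-labelled libraries, 26.6% of all genes were called lower and 28.7% higher. The 4 CRE-labelled libraries alone gave 19 lower and 4 higher. DESeq2 gave 8 lower, beside 673 of all 11569 genes, and leaving out a library gave 0.

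Among the largest single falls, Pald1, a phosphatase-like gene without an ISRE match in its window, fell from 11 and 11.5 to 1.95 and 2.21 FPKM (log2 -2.45 ± 0.39, adjusted p 0.0124 in edgeR). St6gal1, a sialyltransferase, fell by 2.35, Add3, an adducin of the membrane skeleton, by 2.20 and Prkar2b, a regulatory subunit of protein kinase A, by 1.95 on the log2 scale. Tcf19 and Ptgs1, the latter the constitutive cyclooxygenase, fell by 1.81 and 1.77. Each of these 6 had both DMXAA libraries below both controls, as the rule that chose them required. Hspd1-ps3, a pseudogene, and Rpl7a, a ribosomal protein gene with many copies, were also among the 10 largest falls, and their reads could have been split with other copies. Rpl7a had 136 and 65.8 FPKM in control, so its control replicates lay far apart. Prkar2b was called in all 4 fits with a library left out, St6gal1 in 1, and Pald1, Add3, Tcf19 and Ptgs1 in none.

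Other metabolic and stress programs had 0 to 23.8% of their members called in either direction, beside 10% of all genes. Glycolysis and hypoxia genes had 3 of 21 called higher (Pfkfb3 at log2 1.64, Pfkp at 0.71 and Hk1 at 0.60, enzymes of the upper pathway) and 2 lower (Pdk1, which inhibits pyruvate dehydrogenase, at -1.38 and Gpi1 at -0.47), while Aldoa (-0.06) and Pkm (0.20) were not called. Of 20 unfolded protein and integrated stress response genes, 3 were called higher and 0 lower. Chac1, a glutathione-degrading enzyme, rose from 0.171 and 0.215 to 3.93 and 4.84 FPKM (log2 4.45 ± 0.97, adjusted p 0.0356 in edgeR), Sesn2 by 1.51 and the chaperone Hspa5 by 0.76, whereas Calr and Hsp90b1 had log2 0.09 and -0.14. Lysosome and phagocytosis genes had 4 of 24 higher and 0 lower, among them Cybb, a subunit of the phagocyte oxidase (log2 1.39), Npc2 (0.84) and Grn (0.70), with Ctsd (-0.24) and Gpnmb (0.14) not called. The NRF2 list had 1 of 17 called, Keap1, the inhibitor of NRF2 (log2 1.27), with Fth1 and Ftl1 of ferritin at 0.06 and -0.10. Oxidative phosphorylation had 0 of 26 called in either direction, with Cox4i1 at -0.28 and Atp5a1 at -0.10. With the 4 CRE-labelled libraries alone 12 of 26 were called lower and 0 higher, beside 26.6% and 28.7% of all genes. DESeq2 called 0, and 1 had an unadjusted p below 0.05 in edgeR. Of all these genes, Pdk1 was called with each library left out and the others in none of those fits, and Gpi1 was not called without a filter on low values.

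The response was then set beside that of WT-labelled BMDMs, whose log2 fold changes are given as values from the same fit. Of the 842 genes called higher in CRE-labelled cells, 828 had a WT value above 0, and of the 315 called lower 307 had one below 0. The difference between the labels, tested as an interaction of genotype label and DMXAA, was called for 424 genes (3.66%), of which 264 (2.28%) had a negative term (CRE minus WT) and 160 (1.38%) a positive one. Of the 1157 genes called in CRE-labelled cells, 146 had a negative and 28 a positive term, and 983 were not called in the difference. An uncalled difference does not show that the responses were alike. Leaving out a library left 1 in its group, with fewer replicates to set the spread. Called differences then nearly vanished without any CRE-labelled library, and varied widely in number without a WT-labelled one. Such fits cannot tell a loss of power from dependence on a single library. Both WT libraries numbered 2 held fibroblast marker transcripts. Setting both aside left 1 library in each WT group, so only CRE-labelled replicates set the spread and that fit is not read. The part of the fibroblast transcripts in the difference was not tested.

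**Figure D4:**
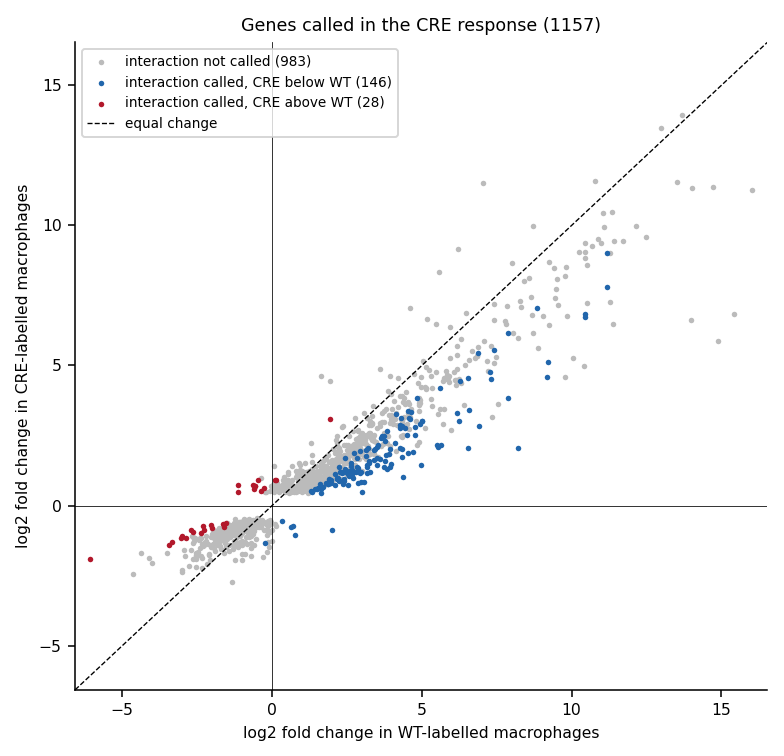
log2 fold change in CRE-labelled (y axis) against WT-labelled (x axis) BMDMs for the 1157 genes called in the CRE response, coloured by the test of the difference. For 951 of the 1157 genes the WT value has the same sign and is larger, 146 have a called negative difference (blue) and 28 a called positive one (red).

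By program, the medians of the interferon lists were 6.16 in CRE-labelled against 8.09 in WT-labelled cells for GTPases, 5.53 against 6.84 for antiviral effectors and 2.35 against 3.46 for MHC class I. The NF-kB list had 0.77 against 1.93 and chemokines 1.16 against 2.93. A negative term was called in 3 of 35 antiviral effectors, 5 of 16 GTPases, 6 of 21 MHC class I genes, 4 of 16 chemokines and 8 of 28 NF-kB genes, beside 2.28% of all genes, and a positive term in 0 of each. Isg15 and Irf7 were not called in the difference, with terms of -0.46 ± 0.65 and -0.41 ± 0.33 (SE; adjusted p 0.764 and 0.561 in edgeR). Cxcl10 reached 4085 and 3244 FPKM in WT-labelled DMXAA libraries against 71.9 and 70.1 here, and its term was -3.38 ± 0.66 (adjusted p 0.0465). For Ccl4 the term was -2.64 (adjusted p 0.00408), for Cd40 -2.78 (adjusted p 0.0422) and for Irf1 -2.25 (adjusted p 0.0105). Icam1 rose in FPKM from 10 and 7.8 to 214 and 105 in WT-labelled cells, against 6.72 and 6.18 to 11 and 11.8 in CRE-labelled ones, with a term of -3.25 (adjusted p 0.0208). For Tlr2 the term was -2.53 and for Nfkbia -1.69.

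The 5 most negative terms follow, among called genes that averaged 5 FPKM or more in some group. Il27 reached log2 8.21 in WT-labelled cells against 2.05 here (term -6.16 ± 0.42, adjusted p 0.00408 in edgeR). Il15ra, the chain that presents IL-15, rose from 0.553 and 0.374 to 1.84 and 2.05 FPKM here and reached 56.3 and 46.1 FPKM in WT-labelled DMXAA libraries (term -4.49). Calhm6, a channel gene of activated macrophages, rose from 0.664 and 0.599 to 16.6 and 14.5 FPKM (log2 4.58), against 430 and 320 in WT-labelled DMXAA libraries (term -4.59). Ch25h, which makes 25-hydroxycholesterol, had 2.86 and 1.87 FPKM in control, and 1.25 and 1.33 under DMXAA, whereas WT-labelled DMXAA libraries had 95.2 and 49.5 (term -4.93). Tnfaip8l3, a phosphoinositide transfer protein, had 12 and 4 counts in control, and 22 and 20 under DMXAA (log2 1.54, not called), and a term of -7.07. So Il27, Il15ra and Calhm6 were called in CRE-labelled cells at a smaller size, and Ch25h and Tnfaip8l3 were not called.

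The 5 most positive terms by the same rule belonged to genes that were lower under DMXAA mainly in WT-labelled cells. Rab3il1, an exchange factor for Rab GTPases, had 38.8 and 39.2 FPKM in control, and 19.5 and 19.9 under DMXAA (log2 -1.01, adjusted p 0.0622 in edgeR), against a WT log2 fold change of -4.50 (term 3.49). Etv5, an ETS factor, had log2 -0.64 against -3.59 (term 2.94). Id1, an inhibitor of basic helix-loop-helix factors, had 56.3 and 58.7 FPKM, and 55.8 and 61.5 under DMXAA, with log2 0.01 against -2.54 (term 2.54). 6430548M08Rik had log2 -0.46 against -3.54 (term 3.08), and Gm28875 -0.48 against -3.11 (term 2.63). None of these 5 was called in the CRE response. Among immediate-early genes, Ier2 and Jun shared this pattern, with log2 -0.05 and 0.29 in CRE-labelled and -2.23 and -0.78 in WT-labelled cells (terms 2.18 and 1.07). The list of AP-1, ATF3 and EGR factors did not share it as a whole. A positive term was called in 2 of 20 members, and the WT median was -0.44. Dusp1, Junb and Atf3 had WT values above 0 (1.34, 1.19 and 1.18).

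**Figure D5:**
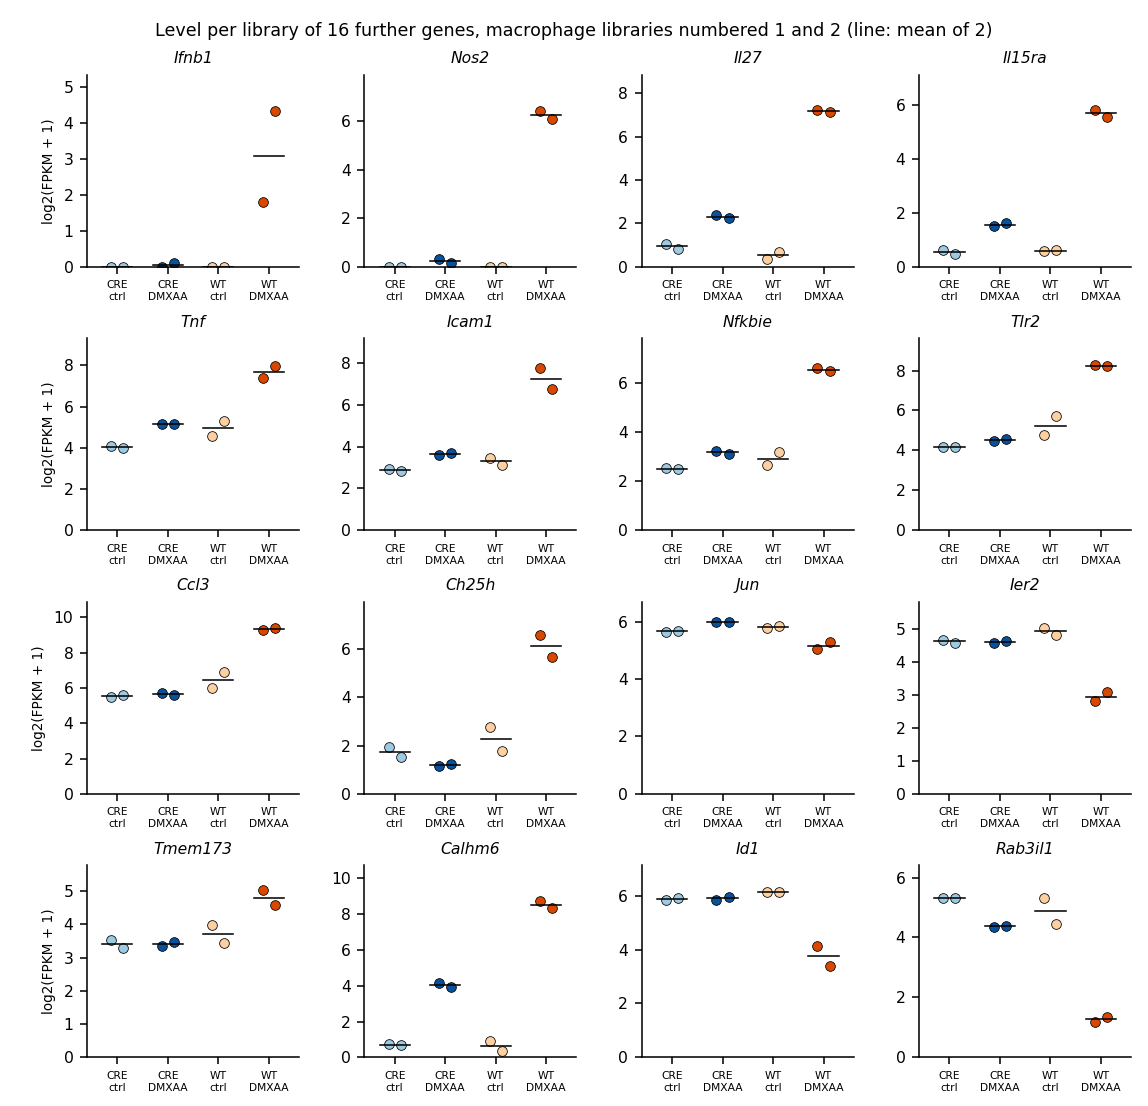
log2(FPKM + 1) in each library (points; line, mean of 2) of 16 genes in CRE-labelled (blue) and WT-labelled (orange) control and DMXAA BMDMs numbered 1 and 2. Ifnb1 and Nos2 stay near 0 in CRE-labelled cells, Calhm6, Il27 and Il15ra rise there to well below the WT DMXAA level, and Jun, Ier2, Id1 and Rab3il1 are lower in the WT DMXAA libraries than in any CRE library.

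A few genes called in CRE-labelled cells had a WT value of opposite sign, 14 of those called higher and 8 of those called lower. Adam8, a metalloproteinase, rose from 352 and 358 to 588 and 575 FPKM (log2 0.69 ± 0.16, adjusted p 0.044 in edgeR), against a WT log2 fold change of -0.56, with a called difference of 1.25 (adjusted p 0.0397). Por, the reductase that serves cytochrome P450 enzymes, rose by 0.72 against -0.64 in WT-labelled cells (term 1.36). In the other direction, Cd33, an inhibitory sialic acid receptor, fell from 7.15 and 7.07 to 4.49 and 4.08 FPKM (log2 -0.75), against 0.63 in WT-labelled cells (term -1.38). Fam102b fell by 0.89 against a WT value of 1.99 (term -2.88). Among 145 long intergenic noncoding RNAs tested, 13 were called higher and 5 lower (12.4%). AW112010 rose from 3.7 and 3.6 to 49.9 and 56.9 FPKM (log2 3.84), with a called difference of -4.02 from the WT value of 7.86. Neat1, the scaffold of paraspeckles, fell from 46.3 and 46.1 to 26.2 and 26 FPKM (log2 -0.85). AW112010 was called with each library left out, and Adam8, Por, Cd33, Fam102b and Neat1 in none of those fits. Neat1 had an adjusted p of 0.0515 with median of ratios scaling, and neither it nor Fam102b was called with limma.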

How the data were processed

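Total RNA was made into polyA libraries with a NEBNext Ultra kit. The submitters' processing notes list CASAVA 1.8, fastp, HISAT2 2.0.5, featureCounts 1.5.0-p3 and DESeq2 1.20.0, and the builds GRCm38 and mm10. The strand setting is not given in the sources used here, so a gene and its antisense partner cannot be told apart. The authors deposited raw counts and FPKM values per gene for 54532 genes in 24 libraries, with 0 unmatched columns and 0 entries without a gene name. Group means, log2 fold changes and p-values of the authors' comparisons, also deposited, were not used.

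Groups came from the labels. The members and gene lists were chosen with earlier results of these data known. The 11569 genes that reached 1 FPKM in 2 or more of the 8 libraries were tested. Counts of the 8 BMDM libraries numbered 1 and 2 entered 1 quasi-likelihood fit with TMM scaling in edgeR 4.0.16 (R 4.3.3), 1 coefficient per group, two-sided, with Benjamini-Hochberg adjustment over all tested genes. Each standard error is the size of the fitted change divided by the square root of F. Where every control library held at most 3 counts, the rise was computed against 3 counts per library and is a bound that covers counting error only. Reads carry no molecular identifiers.

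Named genes were a fixed set, the 10 largest rises and falls (mean FPKM of at least 5, no overlap), up to 3 called members in each direction and the 2 most abundant uncalled members of each list, and the 5 most negative and 5 most positive differences between labels. Not all of them are named, and the results of some genes are not reported here. Ifit3, Mx1, Gbp2, Ddx58, Ifih1, Mb21d1, Irf3, Irf9, Irf1, Socs1, Pou3f1, Batf2, H2-K1, B2m, Ciita, Cd274, Cd86, Ccl2, Ccl3, Ccl4, Ccl12, Cxcl11, Icam1, Nfkbie, Ccrl2, Il1rn, Relb, Tlr2, Mki67, Jun, Ier2, Adam8, Por, Cd33, Fam102b, AW112010 and Neat1 were added after their values were seen, where the rule did not name them. Alternatives were DESeq2 1.42.0, limma 3.58.1 on log2(FPKM + 1) and log2(FPKM + 0.1), another scaling, other filters and thresholds, a replicate block, all 12 BMDM libraries and leaving out each library. Those without each WT library, with both WT libraries numbered 2 set aside, and with the 4 CRE libraries at 2-fold were chosen after seeing the data. The fits of the CRE response were also run on simulated data. All libraries there shared the same means, apart from genes changed in CRE DMXAA libraries. The outcome is not reported here, and the difference between labels was not tested there. Figures were drawn with matplotlib 3.10.9.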

Additional observations from a re-analysis of the deposited data

Results flagged for a closer look

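The response to DMXAA differed between the genotype labels in 424 genes by the interaction term. The 5 most negative and 5 most positive among those that averaged 5 FPKM or more in some group follow, as log2 terms of CRE minus WT. They were -7.07 for Tnfaip8l3, -6.16 for Il27, -4.93 for Ch25h, -4.59 for Calhm6 and -4.49 for Il15ra. On the positive side they were 3.49 for Rab3il1, 3.08 for 6430548M08Rik, 2.94 for Etv5, 2.63 for Gm28875 and 2.54 for Id1. With 1 CRE-labelled library left out, 0 to 2 genes were called in this difference.

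CRE DMXAA library 3, which was set aside, held interferon-induced transcripts above its control. Isg15 had 355 CPM there and 5.96 in CRE control library 3, and Ifit1 had 216 and 4.47 CPM. The macrophage gene Lyz2 had 9.58 and 0.895 CPM in these libraries, and their fibroblast markers summed to 17276 and 19149 CPM. With 1 library each, no test was made.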

How the results depend on the processing

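The count of 1157 called genes (842 higher, 315 lower) and of 424 called differences depended on which libraries set the spread. All 12 BMDM libraries gave 0, 0, 0 and 0. No filter on low values gave 2120, 1443 and 677 calls and 1342 differences, DESeq2 1908, 1235, 673 and 1195. Calls with at least 2-fold change numbered 718, with 136 lower, and at an adjusted p below 0.01 they were 406, 384 and 22, with 11 differences. The 4 CRE libraries alone gave 6389, 3315 and 3074, and with 2-fold 1264 and 436 lower, beside 828 higher. Both WT libraries numbered 2 set aside gave 6368, 3321 and 3047, with 5334 differences. Leaving out 1 of the 8 libraries gave 248 to 1958 calls, 239 to 1280 higher and 6 to 773 lower, with 0 to 1347 differences. Median of ratios scaling put 72.1% of calls higher against 72.8%, limma 71% and 73.9%, and DESeq2 64.7%. The first of these moved the median of all genes by 0.07 in WT-labelled and by less in CRE-labelled cells.

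A replicate block within the genotype label gave 2920 calls, 1808 higher and 1112 lower, and 1702 differences. What a number marks is not given. Deviations of same-numbered control and DMXAA libraries correlated at 0.0338 for CRE and 0.679 for WT (2 pairs each), and both WT libraries numbered 2 held fibroblast transcripts. With 2 pairs per label and no source for the numbers, the block is not read as pairing.

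Values near 0 changed sign, and so did Ptgs1, which fell in the report, to 0.29 with 12 libraries. Tmem173 became 0.142 with 12 libraries, 0.0065 without a filter, 0.0074 and 0.0084 in limma, and lay between -0.147 and 0.107 with a CRE library left out. Id1 became -0.142 with 12 libraries and -0.0500 with the stricter filter, and lay between -0.0684 and 0.0683 with a library left out. Ctss became 0.0135 without a filter and 0.0107 in both limma fits, and lay between -0.0809 and 0.0489. Ccl9 became -0.0030 with 12 libraries and -0.0309 with the stricter filter, and Fth1 lay between -0.0029 and 0.116. The cause was not tested. In the settings that kept the 8 libraries and the threshold, C1qa, Cxcl11, Fam102b, Il12rb1, Neat1, Nfkbiz, Nos2 and Xcr1 lost their call in 1 or both limma fits, Neat1 also with median of ratios scaling, and Gpi1 without a filter. Depth limited Ifnb1, Il6, Il1b and the IL-12 subunits, at 0 to 4 counts in CRE libraries.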
